A study of Homo sapiens with 8 samples.

Results

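The cytosolic ribosomal proteins are the proteins that build the large and small subunits of the ribosome outside mitochondria. Their genes were taken by symbol, from every row of the expression table named RPL or RPS with a number and one of a few letter endings, together with RPLP0, RPLP1, RPLP2 and RPSA. Of 85 matching symbols, 83 reached 1 TPM (a transcript level scaled by gene length and to the same total in each library) in 2 or more libraries and are the members described here. They are 51 large-subunit and 32 small-subunit genes of the 26364 genes in the table. RPL3L and RPL10L, paralogs known from muscle and testis, stayed below that level.

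RNA was sequenced from MV4-11, a human acute myeloid leukemia cell line whose genotype is given as FLT3-ITD and MLL-AF4, so every group carries those alleles. The 8 libraries form 4 groups of 2: the vehicle control (DMSO), TCP at 5 µM, palbociclib at 0.5 µM, and both agents together at those doses (the combination), all taken at day 4. The study's methods describe in vitro treatment with both agents as 1 day with CDK6 inhibition only before 3 days with the pair, a lead-in that the sample labels, which give 4 days, do not mention. TCP inhibits the lysine demethylase LSD1, and palbociclib inhibits the cyclin-dependent kinases CDK4 and CDK6. All libraries come from 1 cell line, and the labels do not say whether replicates were separate cultures, so p-values here measure the spread between these libraries, which may be technical.

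A ribosome needs 1 copy of almost every one of these proteins, and cells therefore make their mRNAs at high and roughly matched levels. The mRNAs usually begin with a C followed by an unbroken run of C and T, the 5′ terminal oligopyrimidine tract, through which mTOR and the RNA-binding protein LARP1 set how well they are translated. Ribosome production uses much of the biosynthetic capacity of a proliferating blood cell, MYC is a well known activator of it, and loss of 1 copy of several of the genes causes Diamond-Blackfan anemia.

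The start sequences are shown because the tract is the feature most members share that the symbols do not reveal. The RefSeq promoter table (GRCh38.p14, a later build than the GRCh37 named for the deposited values) held an entry for 67 of the 83 members. Of these, 55 (82.1%) had a C followed by at least 6 further bases of C or T, read on the transcribed strand and beginning within 10 bases of an annotated start. The same pattern occurred at 4471 of 27305 genes with a promoter in the table (16.4%), at 18.7% of the tested genes with an entry, and at 8 of 68 mitochondrial ribosomal protein genes (11.8%). The tract was found at 34 of 42 large-subunit and 21 of 25 small-subunit genes and at 2 of 5 paralogs, and was 7 to 23 bases long, with a median of 12. In the lines that follow, each sequence has 11 bases before the annotated start and 19 from it on, written 5′ to 3′ with the tract in capitals. The first 5 genes fell under the combination, RPS6 is among the most abundant, the next 5 lay above 0 there, and the last 3 had no tract at the start shown.
RPLP0: gggcgcgaggCCCTTCTCTCgccaggcgtc
RPL21: cccgCCTCTTTCCTTTCggccggaaccgcc
RPSA: ctgccgcctgtCTTTTCCgtgctacctgca
RPS25: agcagcgCTTCCTTTTTgtccgacatcttg
RPS7: ccgCCCTCCTCCTCgcgctgtttccgcctc
RPS6: ggaagttggCCCTCTTTTCCgtggcgcctc
RPS9: cgcttccgcgCCTCTTTCTCagtgaccggg
RPS19: accccgtcgttCCCTTTCCCCTggctggca
RPL28: ccctcgCCTTCCTCTTTCCgtctcaggtcg
RPL29: gcagCCCCTTTCTCTTCCggttctaggcgc
RPL39: tccgccagCTTCCCTCCTCTTCCTTTCTCC
RPL26L1: ttccaggggtcggcgaacgaaacgcggagc
RPS27L: tgatgccgagcgcagatcgcttgcagcttg
RPS26: cacataacctcgattttcttccgccatccg

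The RPSA window lies at chr3:39406709-39406738 on the plus strand, that of RPLP0 at chr12:120201093-120201122 on the minus strand, and that of RPL39 at chrX:119791612-119791641 on the minus strand. RPS19 and RPL26L1 each have 2 annotated starts in the table, of which the first is shown; the second start of neither carried a tract. In the whole window (250 bases before the start and 50 from it on, both strands), CCGGAA, the core bound by ETS factors such as GABPA, stood in 38 of 67 members (56.7%) against 20.1% of all promoters. ATGGCG, part of the YY1 motif, stood in 27 (40.3%) against 12.7%, while the E-box CACGTG stood in 5 (7.46%) against 8.77% and TATAAA in 6 (8.96%) against 14.0%. Among the tested genes with an entry these shares were, in the same order, 35.2%, 21.8%, 12.5% and 8.11%. Among mitochondrial ribosomal protein genes they were 61.8%, 47.1%, 13.2% and 4.41%, so CCGGAA and ATGGCG were not particular to the members. These are matches of letters, and no binding was measured.

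Levels differed widely between members. In the control, the mean level of a member had a median of 959.2 TPM and reached 6089 ± 102 TPM (SD, n = 2, as for all means here) for RPL8. RPL8, RPS6 (4989 ± 499 TPM), the small-subunit protein phosphorylated by S6 kinases, and RPL30 (4316 ± 50.7 TPM) were the 3 highest. RPS26 (28.41 ± 2.10 TPM) and RPL39L (29.04 ± 1.68 TPM) were among the 3 lowest. In all, 41 members stood at or above 1000 TPM and 8 under 100 TPM, and the 10 highest made up 34.3% of the summed level.

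A few facts of the libraries touch every result. The 10 most abundant genes took 9.122 to 9.669% of TPM in the control and TCP libraries and 13.96 to 15.77% in the palbociclib and combination libraries. TPM has the same total in each library, so levels are shares, and in bulk RNA fewer cells of a type and less RNA per cell cannot be told apart. Replicate 1 had a higher summed member level than replicate 2 in all 4 groups, by 4.0% to 7.0%. Markers of the myeloid line were present: 9 or 10 of 10 listed genes reached 1 TPM in every library, and their summed level was 916.8 to 959.2 TPM in the control and TCP libraries and 1502 to 1663 TPM in the others. The listed markers did not move together. CD68 (104 to 124 TPM without palbociclib, 576 to 738 TPM with it), SPI1, CSF1R, CD33, PTPRC and MPO were higher in every library with palbociclib. FLT3 (182 to 263 TPM without it, 62.6 to 94.8 TPM with it), HOXA9 and MEIS1 were lower in every such library, and KIT overlapped. The study's methods describe coculture on the stromal line HS-5, which the sample labels do not mention, and the 8 listed stromal genes summed to 71.6 TPM in palbociclib replicate 2, against 0.762 to 12.8 TPM in the other 7 libraries. LUM was below 0.2 TPM in every library. The part of the stromal RNA in the results was not tested, and the fall of several sets under palbociclib is also described without palbociclib replicate 2.

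The members together took 11.28 to 11.97% of TPM in the control, and less in both groups that received palbociclib. Their summed level was 119729 and 112827 TPM in the control libraries, 124910 and 116736 TPM with TCP, 106244 and 100884 TPM with palbociclib, and 102678 and 98732 TPM with the combination. Every library with palbociclib was below every library without it. The group means were 116280 ± 4880, 120820 ± 5780, 103560 ± 3790 and 100710 ± 2790 TPM, a difference from control of 3.9% with TCP, -10.9% with palbociclib and -13.4% with the combination. Groups of 2 allow no exact permutation test below p = 0.333, so the sums carry no test. Their direction depended on the scale: with the 14 genes that were among the 10 most abundant of any library left out, the differences were -4.86% and -5.42%, and with libraries scaled so that the median gene was equal (median-ratio scaling) they were 0.679% and 2.71%.

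The balance of the subunits stayed within a narrow range. The large-subunit sum was 1.527 and 1.529 times the small-subunit sum in the control libraries, 1.566 and 1.519 times with TCP, 1.515 and 1.507 times with palbociclib, and 1.527 and 1.520 times with the combination. The TCP libraries lay on both sides of the control and the combination libraries reached its range, while both palbociclib libraries were lower than both control libraries. The large-subunit sum differed from control by -11.3% under palbociclib and -13.5% under the combination, and the small-subunit sum by -10.3% and -13.2%, signs that again turn with median-ratio scaling of the total. The difference between the median log2 fold change of large and small subunit members was 0.01 with TCP, 0.03 with palbociclib and 0.04 with the combination. The large minus small difference in median log2 level had an SD of 0.05 between replicates, which is not the spread of these fold changes. In mean log2 level the difference was -0.1578 and -0.1433 in the control libraries and -0.1339 and -0.1522 with TCP. It was -0.1869 and -0.1735 with palbociclib, and -0.1603 and -0.1418 with the combination. By that measure both palbociclib libraries lay below both control libraries, the opposite sign to 0.03, and neither was tested.

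Palbociclib alone went with a shallow decrease of many members. Of the 83 members, 28 fell (limma on log2(TPM + 1), adjusted p below 0.05 over 14151 tested genes) and 0 rose, while over all tested genes 30.2% fell and 14.8% rose. The members' 33.7% that fell is thus near the background. The median log2 fold change was -0.21 for members (-0.20 large subunit, 15 of 51 fell; -0.23 small subunit, 13 of 32 fell) and -0.16 for all tested genes. Both palbociclib libraries were below both control libraries for 54 of 83 members, against 49.7% of tested genes, and palbociclib replicate 1 alone was below both for 56, against 54.5%. Within replicate 1, 74 members were lower than in control replicate 1, and within replicate 2, 68 were. The median log2 difference was -0.203 and -0.192 for members, and -0.142 and -0.164 for all tested genes, which were thus lower too. The share of tested genes that were lower is not given for these pairs. Those that fell included RPL4, RPL5, RPL6, RPL8, RPL9, RPL13, RPL17, RPL35, RPL36, RPLP0, RPL7L1, RPL22L1, RPL26L1, RPL36AL and RPL39L of the large subunit, and RPS2, RPS3, RPS7, RPS15, RPS15A, RPS16, RPS23, RPS24, RPS25, RPS27A, RPS29 and RPSA of the small subunit.

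How many were called depended on single libraries, on the model and on the scale. The count was lower without any single control or palbociclib library, and lowest without palbociclib replicate 2, the library with the highest stromal marker level. Such fits leave 1 library in a group, and in that last fit fewer of all tested genes fell too. The member median was -0.138 without control replicate 1 and -0.246 without control replicate 2. It was -0.255 without palbociclib replicate 1 and -0.159 without palbociclib replicate 2. With the replicate number as a block, 49 fell, against 37.1% of tested genes. Median-ratio scaling moved the median log2 fold change of all tested genes from -0.16 to 0.00, and under it 6 members rose and 4 fell, against 20.9% and 19.5% of tested genes, with a member median of -0.04.

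Members that passed the threshold under the combination also lay below the control. Here 40 of 83 members fell and 0 rose, against 37.6% and 15.9% of tested genes, with a median log2 fold change of -0.26 for members and -0.22 for all tested genes. In the large subunit 22 of 51 fell (median -0.24) and in the small subunit 18 of 32 (median -0.28). Both combination libraries lay below both control libraries for 62 members, against 54.2% of tested genes, and above them for RPL28, RPS9, RPS19 and RPS28. The share of tested genes that lay above is not given, so these names are a description only. Those that fell included RPL3, RPL4, RPL5, RPL6, RPL8, RPL10A, RPL13, RPL17, RPL18, RPL21, RPL23A, RPL24, RPL35, RPL36, RPL41, RPLP0 and the paralogs RPL7L1, RPL22L1, RPL26L1, RPL36AL and RPL39L in the large subunit, and RPS2, RPS3, RPS7, RPS10, RPS13, RPS14, RPS15, RPS15A, RPS20, RPS23, RPS24, RPS25, RPS27A, RPS29, RPSA and the paralog RPS27L in the small subunit. The directions of RPL8 and RPS10 turned under median-ratio scaling (0.03 and 0.04). The palbociclib and combination contrasts use the same 2 control libraries.

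Leaving out any single control or combination library lowered the count of members that fell, most for combination replicate 2. Such fits leave 1 library in a group, and the share of tested genes that fell in them is not given. The member median was -0.204 without control replicate 1 and -0.293 without control replicate 2. It was -0.297 without combination replicate 1 and -0.238 without combination replicate 2. With the replicate block, 57 fell, against 42.9% of tested genes, and RPL39 and RPS9 rose. Under median-ratio scaling 9 members rose and 6 fell, against 24.1% and 22.7% of tested genes, with a member median of -0.015; RPL5, RPL26L1, RPL39L, RPS15A, RPS25 and RPSA were those that fell and RPL7A, RPL15, RPL28, RPL29, RPL37A, RPS9, RPS19 and RPS28 were among those that rose relative to the median gene.

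**Figure D1:**
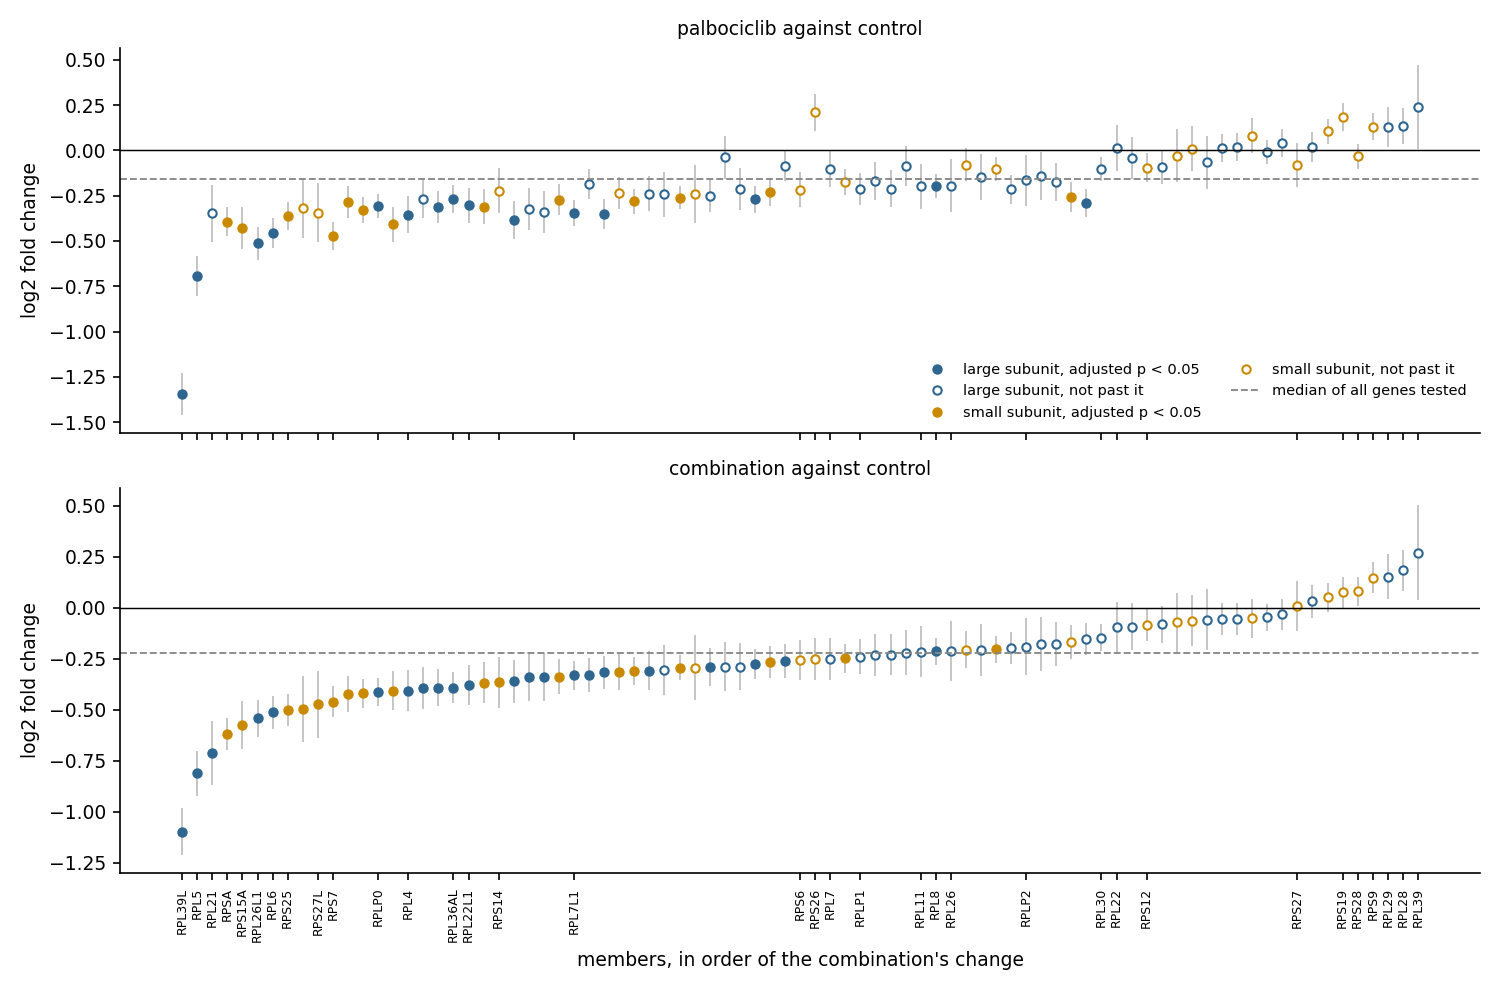
Log2 fold change against control of each member (points, on the log2(TPM + 1) scale, with standard error bars), under palbociclib and under the combination, ordered by the latter, with some members named on the axis. RPL39L and RPL5 lay lowest in both panels, 28 and 40 members passed the threshold, all below 0, and the dashed median of all tested genes (-0.16 and -0.22) ran through the members; under median-ratio scaling some members passed it in each direction.

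The 40 members that fell under the combination had log2 fold changes from -1.10 (RPL39L) to -0.20 (RPS10), with a median of -0.37. The 43 that did not pass had differences from -0.31 (RPL31) to 0.27 (RPL39), of which 34 lay below 0. Under palbociclib the 28 that fell spanned -1.35 to -0.20, and the 55 that did not pass spanned -0.35 (RPL21) to 0.24 (RPL39), 41 of them below 0. With the replicate block RPL31 passed under the combination (adjusted p = 0.00803, limma) and RPL21 under palbociclib (adjusted p = 0.0066, limma). The members past the threshold and those short of it thus overlapped in size of change.

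Of the 3 most abundant members, RPL8 fell under the combination and RPS6 and RPL30 did not pass the threshold. RPL8 stood at 6161 and 6017 TPM in the control, 6289 and 6328 TPM with TCP, 5288 and 5325 TPM with palbociclib, and 5271 and 5225 TPM with the combination. Its replicates lay close together and its groups with and without palbociclib did not overlap, so that a log2 fold change of -0.21 ± 0.07 passed (adjusted p = 0.0315, limma), though it was 0.03 under median-ratio scaling. RPL30 stood at 4352 and 4280 TPM in the control and 3886 and 3909 TPM with the combination, also without overlap, and its difference of -0.15 ± 0.07 did not pass (adjusted p = 0.101; 0.0396 with the replicate block).

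RPL39L changed most. It is the paralog of RPL39, a small protein of the tunnel through which the new chain leaves the ribosome, and is known for expression in testis. Its level was 27.8 and 30.2 TPM in the control libraries, 33.7 and 36.3 TPM with TCP, 12.0 and 9.7 TPM with palbociclib, and 13.0 and 13.0 TPM with the combination. All libraries with palbociclib lay below all libraries without it. It fell by 62.6% under palbociclib (log2 fold change -1.35 ± 0.12 SE, adjusted p = 0.000287, limma) and by 55.2% under the combination (-1.10 ± 0.12, adjusted p = 0.000345), and fell under median-ratio scaling too (-1.18 and -0.86). It was the 1 member to pass a log2 fold change of 1 with adjusted p below 0.01, thresholds that 4.56% of tested genes passed as lower under palbociclib and 7.82% under the combination. The gene lies at chr3:186838736-186898696 on the minus strand (GRCh37), and its coding sequence is 153 bases long, as is that of RPL39.

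**Figure D2:**
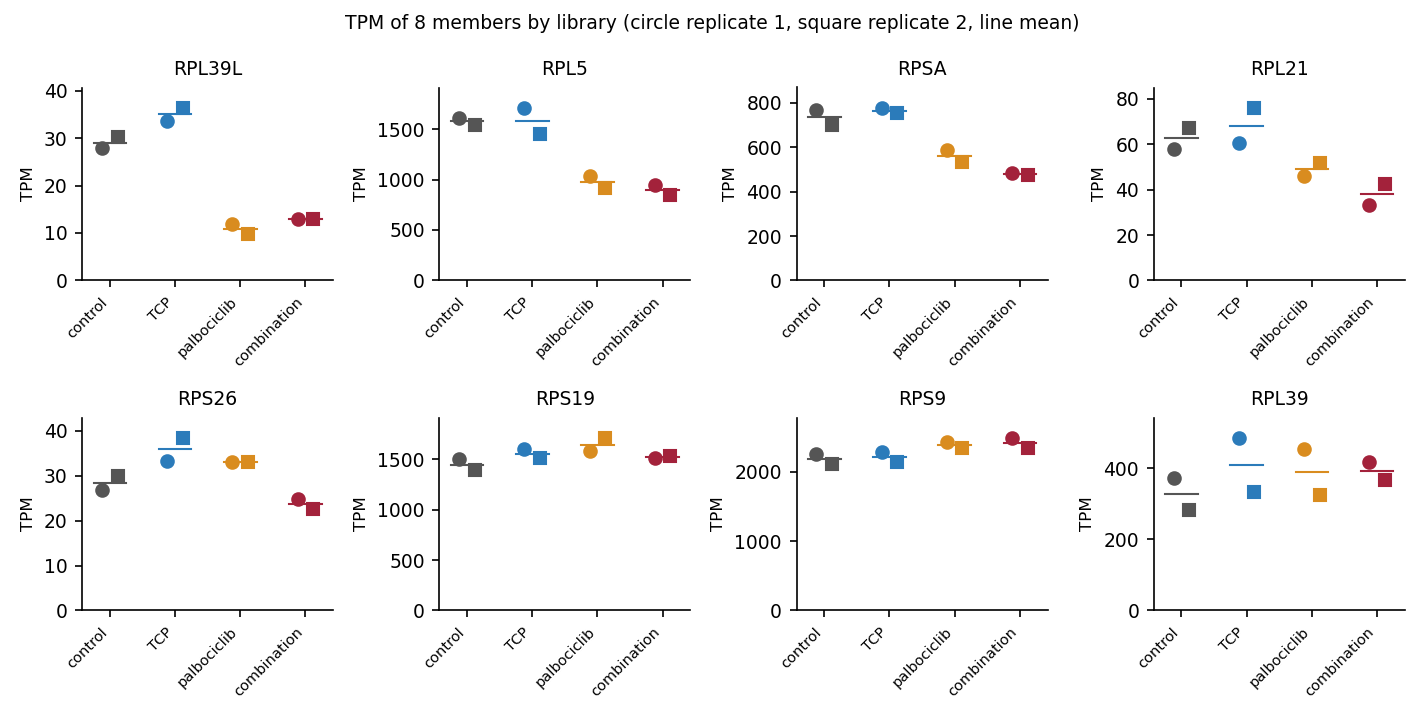
TPM of 8 members in the 8 libraries, with group means as lines and axes from 0. RPL39L, RPL5 and RPSA were lower in every library with palbociclib than in any without it, RPS26 was lowest in the combination, and RPS9, RPS19 and RPL39 were not lower.

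RPL5 and RPL11 bind 5S rRNA, and this 5S particle can also hold MDM2 and so stabilize p53. RPL5 (chr1:93297570-93307481, plus strand, GRCh37) stood at 1612 and 1543 TPM in the control, 1708 and 1452 TPM with TCP, 1040 and 913 TPM with palbociclib, and 948.8 and 850.8 TPM with the combination. Its groups with and without palbociclib did not overlap. It fell by 38.1% under palbociclib (-0.69 ± 0.11, adjusted p = 0.00261, limma) and by 43.0% under the combination (-0.81 ± 0.11, adjusted p = 0.000985), and fell under median-ratio scaling as well (-0.52 and -0.56). RPL11 did not follow it past the threshold: 2727 and 2462 TPM in the control, 2430 and 2097 TPM with palbociclib and 2278 and 2184 TPM with the combination, a log2 fold change of -0.22 ± 0.12 for the combination (adjusted p = 0.184; 0.0327 with the replicate block).

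RPSA, a small-subunit protein also known as the laminin receptor precursor, was lower in both groups that received palbociclib. Its levels were 769.6 and 702.6 TPM in the control, 776.6 and 753.7 TPM with TCP, 588.7 and 532.2 TPM with palbociclib, and 483.3 and 474.0 TPM with the combination. The combination libraries lay below both palbociclib libraries, which lay below the control. RPSA fell by 23.9% under palbociclib (-0.39 ± 0.08, adjusted p = 0.00702, limma) and by 35.0% under the combination (-0.62 ± 0.08, adjusted p = 0.000784); the gap between these groups, -0.23 ± 0.08, did not pass the threshold (adjusted p = 0.206).

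RPS15A, RPS25 and RPS7 of the small subunit and RPL6 of the large subunit followed in size. Under median-ratio scaling RPS15A and RPS25 passed the threshold only under the combination, RPS7 only under palbociclib, and RPL6 in neither contrast. RPS7, which can also bind MDM2, stood at 621.7 and 647.8 TPM in the control, 475.1 and 440.2 TPM with palbociclib, and 481.3 and 440.8 TPM with the combination, the same range in both treated groups. Log2 fold changes under palbociclib and the combination were -0.43 and -0.57 for RPS15A (adjusted p = 0.0226 and 0.00561), -0.36 and -0.50 for RPS25 (0.00885 and 0.0018), -0.47 and -0.46 for RPS7 (0.00272 and 0.00218) and -0.46 and -0.51 for RPL6 (0.00432 and 0.00197), all from limma.

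The P stalk, which recruits translation factors to the large subunit, consists of RPLP0 and the RPLP1 and RPLP2 dimers. RPLP0 stood at 1448 and 1389 TPM in the control, 1173 and 1120 TPM with palbociclib, and 1097 and 1035 TPM with the combination, and fell in both (-0.31 and -0.41, adjusted p = 0.0101 and 0.00231, limma). For RPLP1 and RPLP2 the combination gave -0.24 ± 0.09 and -0.19 ± 0.14, with adjusted p = 0.0523 and 0.297 (0.0133 and 0.0267 with the replicate block). RPLP2 was 3269 and 3836 TPM in the control and 2801 and 3442 TPM with the combination, so its groups overlapped. Without the block, RPLP0 was the 1 stalk gene past the threshold. Under median-ratio scaling it did not pass under palbociclib or the combination (-0.13 and -0.167, adjusted p = 0.191 and 0.0979, limma).

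Around the exit tunnel, where the 9 listed proteins include RPL4, RPL17, RPL26 and RPL39, 4 fell and 0 rose under the combination (median -0.31), a share near the 37.6% of all tested genes that fell there, with RPL4 going from 4398 and 3911 TPM in the control to 3234 and 3028 TPM (-0.41 ± 0.10, adjusted p = 0.0133, limma). RPL22 (243.8 and 215.2 TPM in the control, 227.3 and 201.9 TPM with the combination) and RPL26 (921.6 and 781.1 against 760.2 and 705.4 TPM) had log2 differences of -0.10 and -0.21 that did not pass. With the replicate block RPL26 passed (adjusted p = 0.0409, limma) and RPL22 did not. At the beak and mRNA entry site, which hold RPS2, RPS3, RPS10, RPS12 and RPS27A, 4 of 5 fell under the combination (median -0.31), against the same 37.6%, and RPS12 did not pass the threshold (-0.08 ± 0.08).

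Of the 18 listed genes mutated in Diamond-Blackfan anemia, 5 fell under palbociclib (median -0.20) and 8 under the combination (median -0.23), and 0 rose. These shares of 27.8% and 44.4% are near the 30.2% and 37.6% of all tested genes that fell, as are the medians to -0.16 and -0.22, and without palbociclib replicate 2 the first count was 2. RPS19, the one mutated most often, stood at 1501 and 1394 TPM in the control, 1606 and 1511 TPM with TCP, 1582 and 1711 TPM with palbociclib, and 1513 and 1538 TPM with the combination. All its treated libraries were above both control libraries, but its log2 differences of 0.11, 0.19 and 0.08 did not pass the threshold. RPS14, whose loss is part of the 5q- form of myelodysplastic syndrome, fell under the combination from 1648 and 1427 TPM to 1229 and 1154 TPM (-0.37 ± 0.13, adjusted p = 0.0439, limma). RPS6, which is not on that list, had a difference that did not pass (-0.26 ± 0.10, adjusted p = 0.0632; 0.00688 with the replicate block), from 5342 and 4636 TPM to 4313 and 4024 TPM.

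At the other end, 9 members had log2 differences above 0 under the combination, of which RPL39, RPL28, RPL29, RPS9 and RPS28 were the 5 highest. RPL39 stood at 371.2 and 283.7 TPM in the control, 484.6 and 333.7 TPM with TCP, 453.3 and 323.5 TPM with palbociclib, and 417.8 and 366.3 TPM with the combination. Replicate 1 was the higher in all 4 groups, the groups overlapped, and the difference under the combination was 0.27 ± 0.23 (adjusted p = 0.363, limma; 0.0374 with the replicate block). RPS9 stood at 2254 and 2110 TPM in the control and 2487 and 2342 TPM with the combination, without overlap, a difference of 0.15 ± 0.08 (adjusted p = 0.146; 0.0367 with the replicate block). RPS27 (0.01 ± 0.12) had a level with the combination (1177 and 1062 TPM) inside its control range of 1211 and 1020 TPM.

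**Figure D3:**
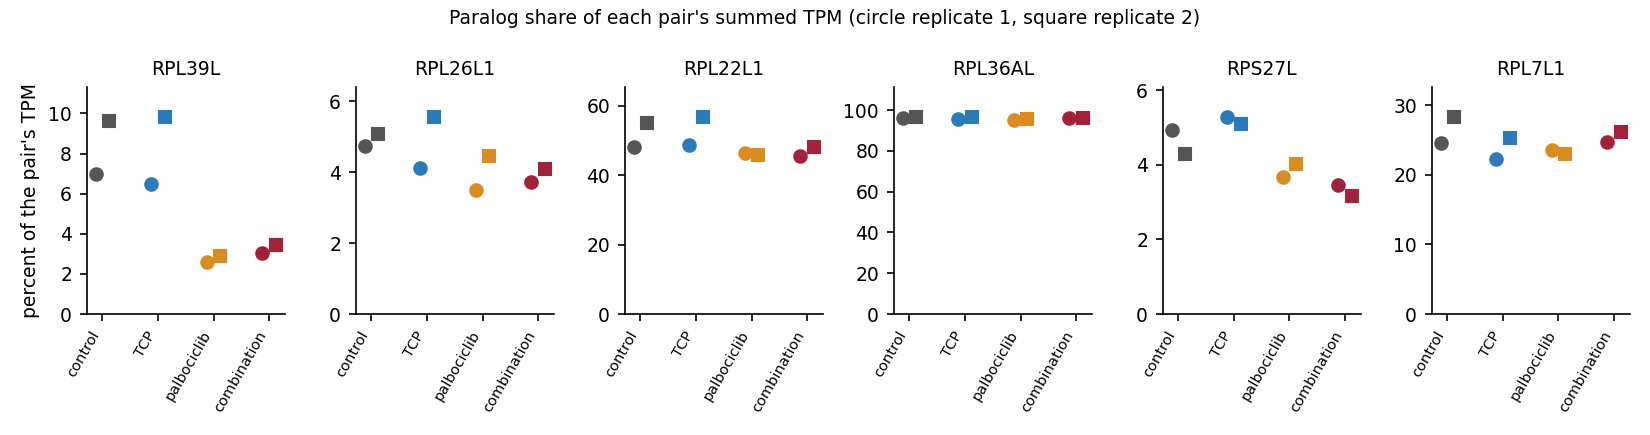
Share of each paralog in the summed TPM of the paralog and its parent gene, in percent, per library, on axes that start at 0 and differ between panels. RPL39L dropped from 6.98 and 9.63% of its pair in the control to 3.02 and 3.44% with the combination, and RPL36AL stayed at 95.4 to 96.6% in all 8 libraries.

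The 6 paralogs, variants encoded by separate genes, summed to 1393 and 1464 TPM in the control libraries, 1387 and 1473 TPM with TCP, 1134 and 1157 TPM with palbociclib, and 1074 and 1093 TPM with the combination. They made up 1.16 and 1.30% of the summed member level in the control and 1.05 and 1.11% with the combination. Under palbociclib 5 of 6 fell (median -0.35) and under the combination 6 of 6 (median -0.43); the other 77 members had 23 and 34 that fell (medians -0.20 and -0.25), shares of 29.9% and 44.2% near the 30.2% and 37.6% of all tested genes. Without palbociclib replicate 2, which leaves 1 library in that group, fewer paralogs, fewer of the other 77 and fewer of all tested genes fell. The share of the other 77 that fell was then below that of all tested genes. The gap between the sets was not tested. Under median-ratio scaling RPL26L1 and RPL39L fell in both contrasts and the other 4 did not pass. RPL26L1 stood at 45.7 and 41.8 TPM in the control, 28.7 and 32.1 TPM with palbociclib, and 29.4 and 30.0 TPM with the combination (-0.54 ± 0.09, adjusted p = 0.00248, limma).

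RPL36AL, at 772.6 and 799.7 TPM in the control, 626.6 and 677.8 TPM with palbociclib and 579.6 and 619.4 TPM with the combination, fell in both contrasts (-0.27 and -0.39). RPL22L1 went from 226.2 and 263.6 TPM in the control to 189.5 and 186.2 TPM with the combination (-0.38 ± 0.10), and RPL7L1 from 258.5 and 282.6 TPM to 219.7 and 209.7 TPM (-0.33 ± 0.07). Of their parents, RPL7 stood at 791.5 and 714.5 TPM in the control and 671.6 and 594.4 TPM with the combination, a difference of -0.25 ± 0.10 (adjusted p = 0.0736, limma; 0.0127 with the replicate block). RPL36A stood at 32.2 and 29.5 TPM and at 23.5 and 26.7 TPM (-0.29 ± 0.12, adjusted p = 0.0814).

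RPS27L, a p53 target, fell under the combination (-0.47 ± 0.17, adjusted p = 0.0463) from 62.7 and 45.8 TPM to 42.4 and 34.7 TPM. Each paralog was set against its parent within the same library. RPL39L was 6.98 and 9.63% of its pair with RPL39 in the control, 6.50 and 9.82% with TCP, 2.58 and 2.91% with palbociclib, and 3.02 and 3.44% with the combination, a split without overlap that any scaling of whole libraries leaves as it is. RPS27L was 4.92 and 4.30% of its pair with RPS27 in the control and 3.47 and 3.17% with the combination, also without overlap. RPL22L1 made up 45.5 to 56.7% and RPL7L1 22.3 to 28.3% of their pairs over all 8 libraries, and RPL36AL outweighed RPL36A throughout.

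TCP alone was not followed by a called change in any member. The count was 0 of 83 (limma), against 0.431% of tested genes; 1 member, RPS26, had an unadjusted p under 0.05, and the replicate block also called 0, with 9 such members. The median log2 fold change was 0.05 for members and -0.04 for all tested genes, and 63 of 83 members lay above 0. This count and those of unadjusted p have no share of tested genes beside them and are a description only. Both TCP libraries were above both control libraries for 17 members, against 12.4% of tested genes, and below them for 1, RPS7, against 22.3%. RPS26 (0.33 ± 0.10, adjusted p = 0.38), RPL39 (0.31 ± 0.23), RPL39L (0.26 ± 0.12), RPS21 (0.19 ± 0.09) and RPLP1 (0.16 ± 0.09) had the largest positive differences.

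Adding TCP to palbociclib gave 0 called members as well, against 3.49% of tested genes; RPS26 and RPSA had an unadjusted p under 0.05. The median difference between the combination and palbociclib was -0.05 for members and -0.07 for all tested genes. With the replicate block, RPL21 and RPS26 fell, and without either TCP replicate, which then leaves the shared spread to the other libraries, 1 member, RPS26, was called. Adding palbociclib to TCP gave a member median of -0.33 and a range over the members from -1.36 to 0.12. The median of all tested genes for this contrast, and their shares in the alternative fits, are not set beside the members' values. This was the contrast with most calls: 52 members fell and 0 rose, while 33.8% of tested genes fell. That count was 34 without TCP replicate 1, 32 without combination replicate 1 and 19 without combination replicate 2, and median-ratio scaling gave 2 that rose and 11 that fell.

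RPS26, which lines the mRNA exit channel of the small subunit, had the interaction estimate farthest from 0 among the members. It stood at 26.9 and 29.9 TPM in the control, 33.4 and 38.4 TPM with TCP, 33.0 and 33.0 TPM with palbociclib, and 24.7 and 22.7 TPM with the combination. Each single agent lay above the control and the combination lay below it. The combination differed from palbociclib by -0.46 ± 0.10 on the log2 scale (adjusted p = 0.0636, limma; 0.0354 with the replicate block), and the interaction, how far the combination lay from adding up the effects of each agent alone, was -0.79 ± 0.14 (adjusted p = 0.279). No member had a called interaction and neither had any tested gene (0.0%); 4 members (RPS15, RPS21, RPS26 and RPSA) and 904 tested genes had an unadjusted p under 0.05, and the member median was -0.10 against -0.03.

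Members with and without the tract at the start were among those that fell. Of the 55 members with it, 23 (41.8%) fell under the combination, with a median of -0.24, near the 37.6% and -0.22 of all tested genes. Of the 12 with an entry but no tract, 7 fell, with a median of -0.31, and of the 16 without an entry 10 fell, also with a median of -0.31. Across the 83 members, which share libraries, the log2 fold change under the combination had a Spearman correlation of 0.261 with the control level and of -0.164 with coding length, given as a description only.

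The listed genes that make and assist ribosomes had medians further below 0 than the ribosomal proteins. Of all tested genes, 30.2% fell under palbociclib (18.1% without palbociclib replicate 2) and 37.6% under the combination. Of 30 listed factors of ribosome assembly and export, 26 fell under palbociclib (median -0.68; 21 without palbociclib replicate 2) and 26 under the combination (median -0.85), among them BRIX1, needed for the large subunit (-1.69 ± 0.10 under the combination, adjusted p = 3.81e-05, limma), and the rRNA methyltransferase FBL (-1.42 ± 0.09, adjusted p = 5.62e-05). Of 15 genes of RNA polymerase I and its factors, 13 fell under the combination (median -0.63), and of 14 chaperones and importins of ribosomal proteins 11 fell (median -0.68), led by IPO5 (-1.51 ± 0.13). Of 77 mitochondrial ribosomal protein genes, 60 fell and 1 rose under palbociclib (median -0.48; 34 and 0 without palbociclib replicate 2), and 64 fell and 2 rose under the combination (median -0.59). Under median-ratio scaling 36 of these 77 still fell and 3 rose under the combination, while the cytosolic members had 6 and 9. The gap between the sets was not tested.

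Among other genes read with the ribosome, 9 of 15 listed mRNAs known for the same 5′ tract fell under the combination (median -0.41), against 37.6% of all tested genes. NAP1L1 (-0.93) and HNRNPA1 (-0.86) had the largest changes, and EEF2, the elongation factor that moves the ribosome along, fell from 3161 and 3050 TPM to 2489 and 2457 TPM (-0.33 ± 0.07, adjusted p = 0.00674, limma). EEF1A1, which brings aminoacyl-tRNA, had 3704 and 3225 TPM in the control and 3804 and 3521 TPM with the combination, with overlap (0.08 ± 0.10). Of translation factors outside that list, 11 of 13 fell (median -0.43), against the same 37.6%, with ABCE1, the recycling factor, at -1.43 ± 0.09. RACK1 (listed as GNB2L1), a scaffold on the small subunit that is no member by symbol, fell under palbociclib and the combination (-0.50 and -0.48, adjusted p = 0.00522 and 0.00502), whereas FAU, which encodes a ribosomal protein fused to a ubiquitin-like protein, had a difference of -0.05 ± 0.06 under the combination that did not pass.

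Some members have near-identical copies elsewhere in the genome, and their levels are given as uncertain. RPL21 stood at 58.0 and 67.1 TPM in the control and 33.4 and 42.6 TPM with the combination, and the pseudogene row RPL21P28 at 57.8 and 67.1 TPM and 33.7 and 42.7 TPM, almost the same value in each library. RPSAP58 stood at 1530 and 1533 TPM in the control, above RPSA itself, and fell with both agents by 0.61 (log2; adjusted p = 0.00113, limma). RPL13AP5 stood at 2140 and 1985 TPM, beside 1937 and 1780 TPM for RPL13A. These rows were chosen after their values were seen, and whether reads of RPL21, RPSA, RPL13A, RPS26 or RPL36A were assigned to such copies was not tested.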

How the data were processed

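RNA-seq of MV4-11 cells was deposited as 1 table of TPM values for 8 libraries and 26364 genes, and the authors made these TPM values from reads aligned to GRCh37 with Subread; their processing notes also name SAMtools 1.9, featureCounts 1.6.4 and DESeq2 1.26.0. Their pseudogene, multi-mapping and strand settings are not given in the sources used here. Read depth is unknown, since every TPM column has the same total, so no counting interval is given.

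Groups followed the sample labels. Log2(TPM + 1) values of the 14151 genes with at least 1 TPM in 2 libraries were fitted with limma 3.58.1 (R 4.3.3) with trended moderation, all 4 groups sharing 1 estimate of the spread (4 residual degrees of freedom), and p-values were adjusted by the Benjamini-Hochberg method over all tested genes. Fold changes of low genes are understated by the pseudocount. The fit was tested on simulated data. Tables were made with Python 3.11.15, and coding lengths and GRCh37 positions came from GENCODE; matching of promoters used RefSeq symbols.

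Replicate numbers were taken from the labels. As a check, libraries that share a number deviated together, with correlations (of each library's distance from its group mean) of 0.169 to 0.491 over all tested genes in the 6 pairs of groups, so fits with the number as a block are given where they change a call or move a count by over 1.5 times.

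The members and gene lists were chosen with earlier results of these data known. Genes named were all paralogs, a list of 16 members of known role, the 5 highest and 5 lowest changes per treatment, the 3 highest and 3 lowest control levels, any member past the log2 fold change of 1, some associated factors, and up to 2 genes per other list with the largest change under the combination; RPS7, RPS25 and RPL6 beyond a rank, RPL4, RPS12, RPS21 and the pseudogene rows were named after their values were seen. Some items covered by this rule are not reported here. Alternatives were the pseudocount (0.1), the filter, quantile and median-ratio scaling, scaling to an equal summed member level, leaving out abundant genes or single libraries, the groups compared, the block and the moderation. Counts of gene lists under palbociclib without palbociclib replicate 2 were added after seeing the data.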

Additional observations from a re-analysis of the deposited data

Results flagged for a closer look

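In 7 of the 83 members the libraries with TCP lay on opposite sides without and with palbociclib. Both TCP libraries lay above both control libraries, and both combination libraries lay below both palbociclib libraries. The share of all tested genes with this order is not given, so the count is a description only. The gaps could be small: for RPL8 the combination differed from palbociclib by -0.016 ± 0.067 on the log2 scale. The interaction estimates on the log2 scale were -0.79 for RPS26, -0.27 for RPL41, -0.25 for RPS15, -0.22 for RPS10, -0.22 for RPS19, -0.10 for RPS23 and -0.07 for RPL8. None of the 7 passed the interaction test over all tested genes (limma, adjusted p = 0.279, 0.817, 0.775, 0.8, 0.859, 0.971 and 0.99), so a difference between the effects was not shown, and the opposite order of the libraries itself was not tested. Groups of 2 allow no search for single outlying libraries.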

How the results depend on the processing

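Read depth is unknown and each group has 2 libraries, so small differences rest on few values. The medians and counts changed with the scale of the libraries, and the counts also with the thresholds, the filter, the block and single libraries. The counts in this paragraph take members that rose and fell together, and the shares of tested genes are not set beside them. With libraries scaled to the median gene, 10 members were called under palbociclib (6 rose, 4 fell) and 15 under the combination (9 rose, 6 fell). For the combination against TCP 13 were called (2 rose, 11 fell), and the medians were -0.036, -0.015 and -0.128. With an equal summed member level the counts were 12 (6 rose, 6 fell), 16 (7 rose, 9 fell) and 14 (7 rose, 7 fell). The medians were -0.046, -0.052 and -0.067, and the interaction median was -0.006. Without the most abundant other genes the counts were 14 (2 rose, 12 fell), 18 (3 rose, 15 fell) and 26 (1 rose, 25 fell). The medians were -0.118, -0.13 and -0.206. Without a filter on low values, where more genes were tested, the counts were 12, 18 and 23, and at the stricter thresholds 1, 1 and 1, all of which fell.

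With the replicate block 49 members were called under palbociclib and 2 for the combination against palbociclib; it moved no other count of calls by over 1.5 times. Leaving out single libraries gave 5 to 30 calls under palbociclib, 13 to 44 under the combination, 19 to 49 against TCP and 0 to 1 against palbociclib, and a large minus small subunit difference of -0.014 to 0.059 under the combination.

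Summed member TPM of control, TCP, palbociclib and combination was 128983, 134336, 122708 and 121991 without the most abundant genes, and 106998, 114614, 107725 and 109897 with median-ratio scaling. Without paralogs the large to small ratio was 1.5 in control, 1.486 with palbociclib and 1.498 with the combination; the mean log2 level differed between subunits by -0.151, -0.143, -0.18 and -0.151 in the 4 groups. Over all 83 members, 4 called changes reversed. Under the combination RPL8 turned to 0.032 and RPS10 to 0.041 with median-ratio scaling, and with an equal summed member level RPS10 turned to 0.002 and RPS24, for the combination against TCP, to 0.033. Of the other comparisons of a member with an alternative, 7388 kept direction and side of the threshold, 686 lost and 140 gained a call, and 663 uncalled differences changed sign; the cause was not tested.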

Other observations

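Among the listed regulators of ribosome production, MYC and EIF4EBP1 fell in both groups that received palbociclib. MYC, the activator of ribosomal genes, stood at 865 and 860 TPM in the control, 709 and 732 TPM with TCP, 467 and 456 TPM with palbociclib, and 471 and 431 TPM with the combination, and fell in both (log2 fold changes of -0.90 and -0.94, adjusted p = 0.000191 and 9.14e-05, limma). EIF4EBP1, the translation repressor controlled by mTOR, fell by 1.59 and 1.77 on the log2 scale. Of 17 listed regulators, 8 fell under palbociclib and 11 under the combination (medians -0.33 and -0.42), against 30.2% and 37.6% of all tested genes. Without palbociclib replicate 2, 4 fell under palbociclib, against 18.1%.

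Of 11 listed snoRNA host genes, several of which have the same 5′ tract, 4 fell and 1 rose under palbociclib, and 7 fell under the combination (median -0.44), against the same 30.2% and 37.6%. Without palbociclib replicate 2, which leaves 1 library in that group, fewer of these host genes and fewer of all tested genes fell under palbociclib, and no host gene rose. SNHG1 (-1.03) and SNHG7 (-0.71) changed most under the combination. The row of the microRNA gene MIR6087 stood at 22704 to 26427 TPM in the control and TCP libraries and at 30134 to 40060 TPM in the others (0.60 on the log2 scale under the combination, adjusted p = 0.00669, limma). The study's methods name an mRNA library kit, and which RNA gave the reads of this row was not tested. The rows of ribosomal protein pseudogenes summed to 4026 and 3869 TPM in the control and 3365 and 3280 TPM with the combination.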
